A study of Homo sapiens with 9 samples.

Results

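Transcripts of 7 genes of the NF-kB system were followed in Caki-1 cells, a human line from clear cell renal cell carcinoma, in which TAF1D had been knocked down with short hairpin RNAs. The genes were chosen by symbol, with earlier results of these data known. They are the subunits NFKB1, NFKB2 and RELB, and the intracellular NF-kB targets TNFAIP2, TNFAIP3, BIRC3 and SOD2. They account for 15 of the 20909 transcripts and 7 of the 6819 genes in the deposited table. RNA sequencing covered 9 libraries: 3 of SH1 and 3 of SH3, both labelled as TAF1D knockdown, and 3 controls labelled WT. What SH1 and SH3 denote is not stated in the labels, nor is it stated whether libraries of a group came from separate cultures, so the p-values measure the spread between these samples, which may be technical. TAF1D has no transcript in the table, and its knockdown was not analysed here.

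NF-kB is a family of dimeric transcription factors held in the cytoplasm by inhibitor proteins until a kinase complex marks those inhibitors for destruction. NFKB1 and NFKB2 encode precursors that are processed to DNA-binding subunits, NFKB2 with RELB acting in the slower non-canonical branch. The factors then switch on inflammatory and survival genes together with their own inhibitors, among them TNFAIP3, and NF-kB activity is common in renal carcinoma cells.

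The promoter letters are shown first, because the 7 genes are grouped by their relation to this factor. RefSeq promoter windows on build GRCh38.p14, reaching from 250 bases before to 50 bases after a gene's start, were matched for 6 of the 7 genes and gave 12 windows. The kappa-B consensus, the 10-base site class that NF-kB dimers bind, was found in 5 of these windows, belonging to 4 genes, against 5.91% of the 35116 RefSeq promoter windows. It was searched on both strands, and matches on the 2 strands can overlap. The 4 SOD2 windows and the TNFAIP2 window held no match. Each stretch below runs on the plus strand with 20 bases on either side of its first and last match, and capitals mark the kappa-B matches. One window per gene is shown, for NFKB2 1 of its 2 windows with a match: chr4:102501290-102501339 for NFKB1, chr10:102394451-102394529 for NFKB2, chr6:137867172-137867233 for TNFAIP3 and chr11:102317265-102317378 for BIRC3.
NFKB1: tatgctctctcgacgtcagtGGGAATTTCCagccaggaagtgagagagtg
NFKB2: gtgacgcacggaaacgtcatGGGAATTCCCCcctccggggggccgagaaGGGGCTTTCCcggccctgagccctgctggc
TNFAIP3: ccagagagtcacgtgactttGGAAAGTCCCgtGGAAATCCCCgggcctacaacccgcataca
BIRC3: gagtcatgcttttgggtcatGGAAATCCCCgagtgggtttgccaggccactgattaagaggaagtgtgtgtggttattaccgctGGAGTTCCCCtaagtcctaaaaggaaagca
The NFKB2 stretch holds 3 matches, of which the first 2 overlap in one run of capitals. A match describes these letters and does not show that a factor is bound.

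Levels are given as FPKM, fragments scaled by transcript length and library size, and summed over the listed transcripts of a gene. The table is a selection, since all 20909 transcripts differ at least 2-fold in estimated count between SH1 1 and control 1, against 51.5% to 64.9% of them in the other 35 pairs of libraries. A gene sum therefore leaves out the transcripts that were not listed, and SH1 1 and control 1 chose what is seen. The listed counts sum to 1358215 to 1596467 per library and to 4.20% to 5.18% of the TPM total. Of the renal list of markers, 4 of 13 are listed, and their summed level was 23.6 to 27.5 FPKM in SH1, 63.7 to 77.0 FPKM in SH3 and 73.6 to 93.6 FPKM in control. PAX8, the renal lineage factor, was read in every group (5.42, 5.30 and 2.26 FPKM on average in SH1, SH3 and control), and KRT19, a keratin, accounts for most of the sum. Of 7 blood cell markers only CD68 is listed, at 13.1 to 17.8 FPKM in SH1, 12.7 to 14.1 FPKM in SH3 and 7.84 to 12.5 FPKM in control. None of 5 endothelial markers is listed, and 1 of 6 fibroblast markers is, PDGFRB, at 0.16 to 0.34 FPKM. The lower renal sum in SH1 came mostly from KRT19 (18.2, 62.5 and 80.7 FPKM on average in SH1, SH3 and control). CDH6 was also lower on average in SH1 and SH3 than in control (0.303, 0.103 and 0.917 FPKM). PAX8 and MME (1.28, 0.347 and 0.160 FPKM) were higher on average in SH1 and SH3 than in control. CD68 lay above control in all SH1 and SH3 libraries. The part of these markers in the results below was not tested.

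Per length, SOD2 was the highest of the 7 genes, with a mean of 47.4 FPKM over the 9 libraries, followed by NFKB2 with 17.6 FPKM and TNFAIP3 with 3.88 FPKM. The other 4 genes averaged between 0.743 and 1.14 FPKM, and their libraries overlapped between genes. The plot of summed levels shows this order and the spread between libraries. As bulk RNA was measured, fewer cells of a kind and less RNA per cell cannot be told apart.

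**Figure D1:**
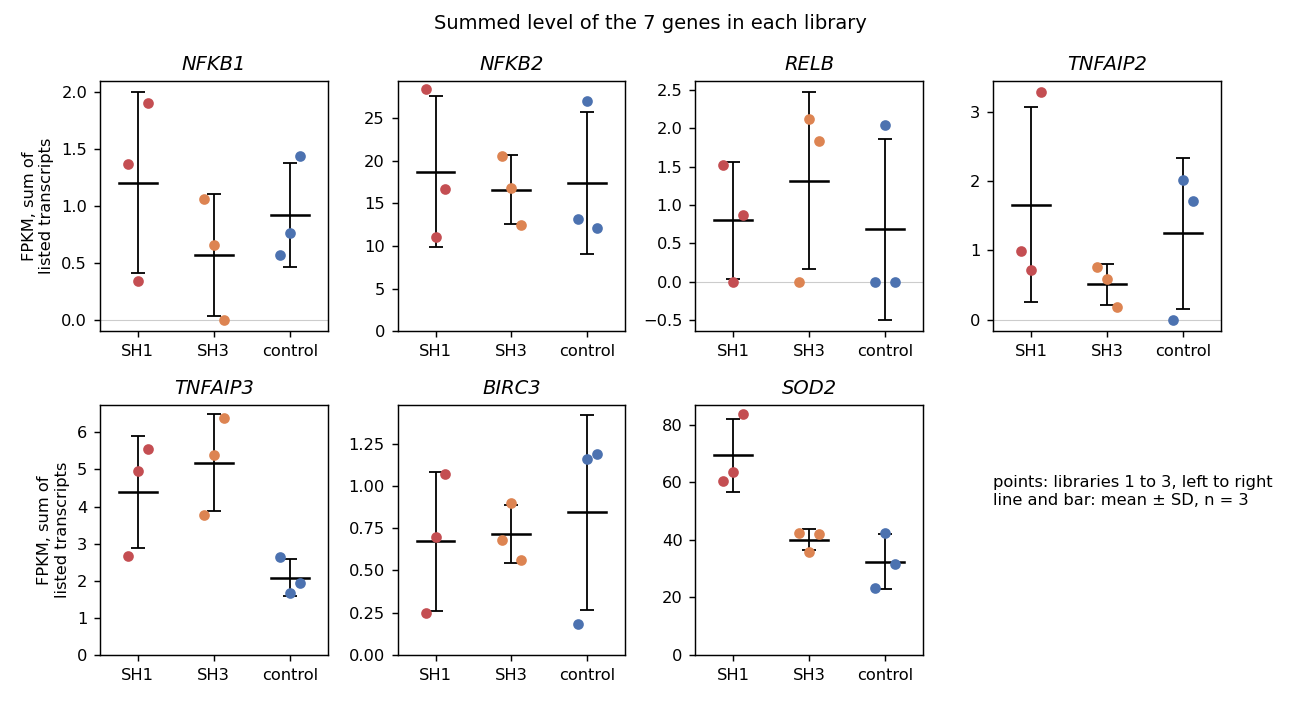
Summed FPKM of the listed transcripts of each gene (y axis, scaled per panel) in SH1, SH3 and control; points are libraries 1 to 3, lines and bars the mean ± SD (n = 3). SOD2 in SH1 lies between 60.6 and 84.0 FPKM, above all SH3 and control libraries, and TNFAIP3 in SH1 and SH3 lies above its controls, although SH1 1 (2.68 FPKM) and control 1 (2.64 FPKM) nearly meet.

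SOD2, the mitochondrial manganese superoxide dismutase, was the 1 gene of the 7 whose sum passed the test in SH1. Its sum was 60.6, 63.8 and 84.0 FPKM in SH1 libraries 1 to 3, 42.5, 36.0 and 41.9 FPKM in SH3, and 23.4, 42.5 and 31.5 FPKM in control. Every SH1 library stood above every control and every SH3 library, whereas SH3 and control overlapped in FPKM. In estimated counts the sum was 5179, 4605 and 3926 in SH1, 3753, 2646 and 2281 in SH3, and 1881, 1803 and 2072 in control, and here SH3 did not overlap control either. Of the 9 RefSeq SOD2 transcripts 2 are listed, so the sum is not the level of the gene as a whole. Fitted over all listed genes, the SOD2 sum rose 2.11-fold in SH1 against control (log2 fold change 1.08 ± 0.20 SE, edgeR quasi-likelihood test with Benjamini-Hochberg adjustment, adjusted p = 0.0405). In SH3 the difference from control was 0.49 ± 0.20 on the log2 scale (edgeR adjusted p = 0.562), and in SH3 against SH1 it was -0.59 ± 0.20 (adjusted p = 0.306, unadjusted p = 0.019). Of the 7 gene sums, SOD2 was the 1 past an adjusted p of 0.05 in SH1, where 2.14% of the 6398 tested sums passed. No sum of the 7 passed in SH3 (0.406% of all sums), in the average of SH1 and SH3 (1.11%) or in SH3 against SH1 (1.36%), with 2, 2 and 1 of the 7 under an unadjusted p of 0.05 (8.39%, 10.2% and 10.8% of all sums), and DESeq2 called 1, 2 and 0 of the 7, against 4.09%, 5.71% and 6.85% of all sums that it gave an adjusted p. The SH1 call is close to the threshold: without control 1 and SH1 1, the libraries that chose the table, the log2 fold change was 0.99 with adjusted p = 0.226, and it was lost without any 1 SH1 or control library and without SH3 2 (adjusted p 0.0246 to 0.139 over all 9 left out in turn).

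Both listed SOD2 transcripts were high in SH1. The long transcript NM_000636 had 15.9, 13.3 and 8.79 FPKM in SH1, 11.4, 7.53 and 5.62 FPKM in SH3, and 5.62, 3.80 and 5.91 FPKM in control. Its SH1 libraries stood above all controls, and the lowest SH3 library lay within the control range. The short transcript NM_001024465 had 44.7, 50.5 and 75.2 FPKM in SH1, 31.1, 28.4 and 36.3 FPKM in SH3, and 17.8, 38.7 and 25.6 FPKM in control. Again SH1 stood clear, while SH3 lay within the control range. Neither passed on its own in SH1, with log2 fold changes of 1.21 ± 0.32 for the long and 0.95 ± 0.38 for the short transcript (edgeR adjusted p = 0.443 and 0.625). The lengths implied by counts and FPKM differ 14.9-fold, so the long transcript took 18.9% of the summed FPKM but 75.6% of the summed estimated counts on average over the 9 libraries. A count test of the sum mostly follows the long transcript, and FPKM mostly follows the short one.

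TNFAIP3, the ubiquitin-editing enzyme that shuts NF-kB signalling off, showed a transcript with estimated counts in both knockdowns and none in control. NM_001270508 had 147, 320 and 385 estimated counts in SH1, 215, 346 and 414 in SH3, and 0 in all 3 controls, which is 1.64, 3.54 and 4.15 FPKM in SH1 and 2.36, 3.78 and 4.47 FPKM in SH3. All 6 knockdown libraries were above all 3 controls, and SH1 and SH3 overlapped. Set against a floor of 3 counts over the control group, the estimate was 269-fold higher in SH1 and 318-fold higher in SH3. These ratios take the control estimates of 0 as given, although control 1 and SH1 1 chose the table. They are not lower bounds, as such estimates can vary widely within a group. For example, XM_005259127 of RELB had 0, 89.4 and 0 estimated counts in control. How reads were split between transcripts was not tested. The sum over both listed TNFAIP3 transcripts was 1.89-fold higher in SH1 and 2.36-fold higher in SH3, and passed in neither in edgeR. NM_001270508 passed the edgeR test in SH1 (adjusted p = 0.0218) and in the average of SH1 and SH3 (adjusted p = 0.0301), and it missed the threshold in SH3 (adjusted p = 0.0574), which DESeq2 called. SH3 against SH1 gave 0.24 ± 0.72 on the log2 scale (edgeR adjusted p = 1). NM_001270508 was the only one of the 13 tested member transcripts called in SH1, where 0.131% of 17495 tested transcripts were, and in the average (0.12%). With 0 in all 3 controls, it passed the low-count filter only through SH1 and SH3, where it is high. Its listing rests on SH1 1 and control 1. The shares are therefore given for scale and do not test its call. In SH3 (0.0286%) and in SH3 against SH1 (0.0972%) edgeR called 0 of the 13, with 1 and 0 under an unadjusted p of 0.05 (5.87% and 6.25% of all transcripts). DESeq2 called 1 and 0 of the 13 there, against 2.27% and 2.69% of all transcripts that it gave an adjusted p. The SH1 call was lost without control 3, SH1 2, SH1 3 or any 1 SH3 library (adjusted p 0.0548 to 0.101), and without both control 1 and SH1 1 (adjusted p = 0.0514). The call in the average held without control 1 and was lost without any other single library (adjusted p 0.0598 to 0.130).

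The other listed TNFAIP3 transcript did not follow. XM_011536095 had 94.3, 130 and 131 estimated counts in SH1, 131, 148 and 181 in SH3, and 241, 156 and 174 in control. Its SH1 libraries were all below the controls, and SH3 overlapped control. The log2 fold change was -0.79 ± 0.68 in SH1 and -0.37 ± 0.68 in SH3 (edgeR adjusted p = 1 for each). The transcripts have nearly the same effective length (ratio 0.986), so their counts can be set side by side. NM_001270508 supplied 60.9%, 71.2% and 74.6% of the summed counts in SH1, 62.1%, 70.0% and 69.6% in SH3, and 0% in control.

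Summed over both transcripts, TNFAIP3 had 241, 450 and 516 estimated counts in SH1, 347, 495 and 595 in SH3, and 241, 156 and 174 in control. SH1 1 and control 1 had the same sum to within 1 count, although NM_001270508 made up 60.9% of it in SH1 1 and 0% in control 1. In FPKM the sum averaged 4.39 ± 1.51 in SH1, 5.18 ± 1.32 in SH3 and 2.08 ± 0.505 in control (SD, n = 3 each). The log2 fold change was 0.92 ± 0.34 in SH1 and 1.24 ± 0.35 in SH3, with edgeR adjusted p = 0.359 and 0.303. DESeq2 gave the SH3 sum an adjusted p of 0.0365. RefSeq holds 12 TNFAIP3 transcripts, of which 2 are listed, and the GENCODE transcript matched to NM_001270508 is also matched to NM_001270507 and NM_006290, which are not listed. How the estimate splits reads between transcripts was not tested.

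**Figure D2:**
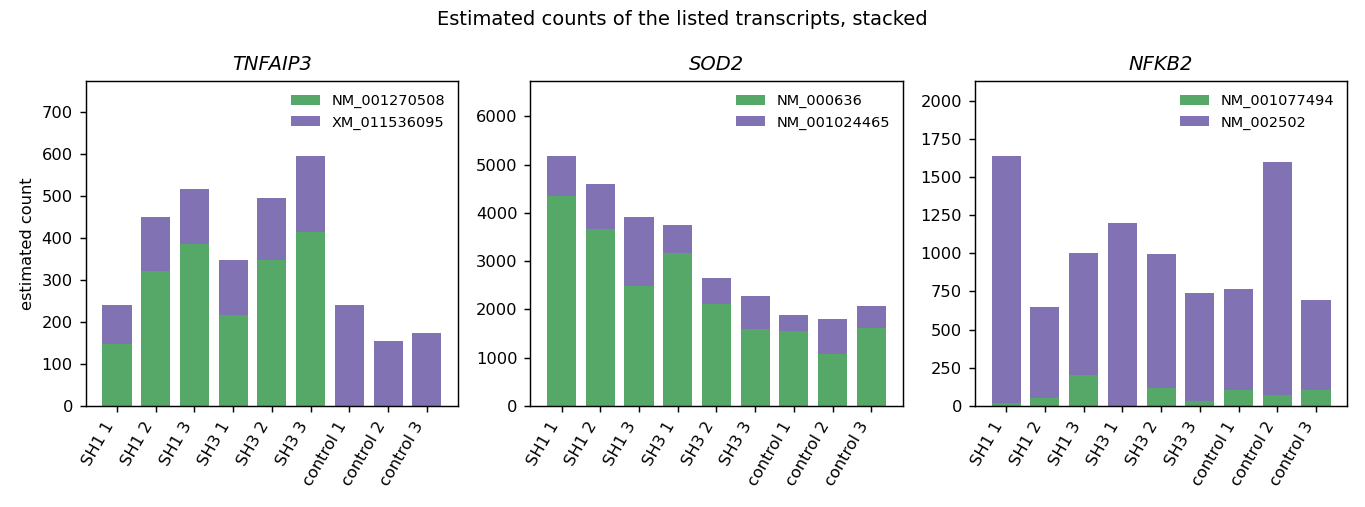
Estimated counts of each listed transcript (y axis) of TNFAIP3, SOD2 and NFKB2, stacked, in SH1, SH3 and control libraries 1 to 3. NM_001270508 of TNFAIP3 is present in all 6 knockdown libraries and is 0 in the 3 controls, SOD2 counts come mostly from NM_000636, and NFKB2 counts vary as much within groups as between them.

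Among the subunits tested, NFKB2 was the best read. Its sum was 28.4, 11.1 and 16.7 FPKM in SH1, 20.5, 16.9 and 12.5 FPKM in SH3, and 13.2, 27.0 and 12.1 FPKM in control. High and low libraries occurred in every group, and all 3 groups overlapped. The log2 fold change was -0.10 ± 0.44 in SH1 (interval -0.95 to 0.76) and -0.18 ± 0.44 in SH3 (interval -1.04 to 0.68), with edgeR adjusted p = 0.998 and 0.999. Intervals are 95% intervals from the standard error, taken as normal, and are narrower than the edgeR test implies. Changes inside them are compatible with the spread between these libraries. NM_002502 made up 80.5% to 100% of the sum in FPKM, and NM_001077494 the rest.

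NFKB1 was low, with 1.37, 0.34 and 1.90 FPKM in SH1, 1.06, 0.66 and 0 FPKM in SH3, and 0.57, 0.76 and 1.44 FPKM in control. The groups overlapped, and the transcript that carried the sum changed from library to library. NM_001382627 supplied 86.1%, 100% and 0% of the summed FPKM in SH1, 50.9% and 100% in SH3 1 and SH3 2, where SH3 3 had no NFKB1 count, and 49.1%, 26.3% and 0% in control. XM_024454069 was at 0 in SH1 2 and supplied the whole sum in SH1 3, as it did in control 3. NM_001319226 was read only in control 1, at 0.29 FPKM, and did not pass the low-count filter. Of the 12 RefSeq NFKB1 transcripts 3 are listed, so the sum is not the level of the gene as a whole.

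RELB, the partner of the processed NFKB2 product, has 1 listed transcript, XM_005259127. It had 1.52, 0 and 0.87 FPKM in SH1, 0, 2.12 and 1.83 FPKM in SH3, and 0, 2.04 and 0 FPKM in control. It was at 0 in 4 of 9 libraries, in every group. The standard error of the log2 fold changes of the NFKB1, RELB and TNFAIP2 sums against control was 1.39 to 2.57, and changes of that size were not detectable in these libraries.

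TNFAIP2, a TNF-induced gene linked to membrane protrusions, had 0.99, 0.72 and 3.28 FPKM in SH1, 0.76, 0.59 and 0.18 FPKM in SH3, and 0, 2.02 and 1.72 FPKM in control. The groups overlapped, with SH1 3 the highest library. Of its 3 listed transcripts, XM_011537112 was at 0 in 6 libraries, XM_017021616 in 3 and XM_011537114 in 2, and XM_011537114 was highest in SH1 3 (2.13 FPKM).

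BIRC3, an inhibitor of apoptosis that attaches ubiquitin in TNF receptor signalling, had 0.25, 0.70 and 1.07 FPKM in SH1, 0.68, 0.90 and 0.56 FPKM in SH3, and 0.18, 1.16 and 1.19 FPKM in control. The groups overlapped, and control 1 was the lowest of all 9 libraries. The log2 fold change was -0.56 ± 0.87 in SH1 and -0.36 ± 0.87 in SH3 (edgeR adjusted p = 0.970 and 0.999). XM_024448467 was read only in SH1 1 and SH1 3, and it did not pass the low-count filter, so 13 of the 15 transcripts were tested.

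**Figure D3:**
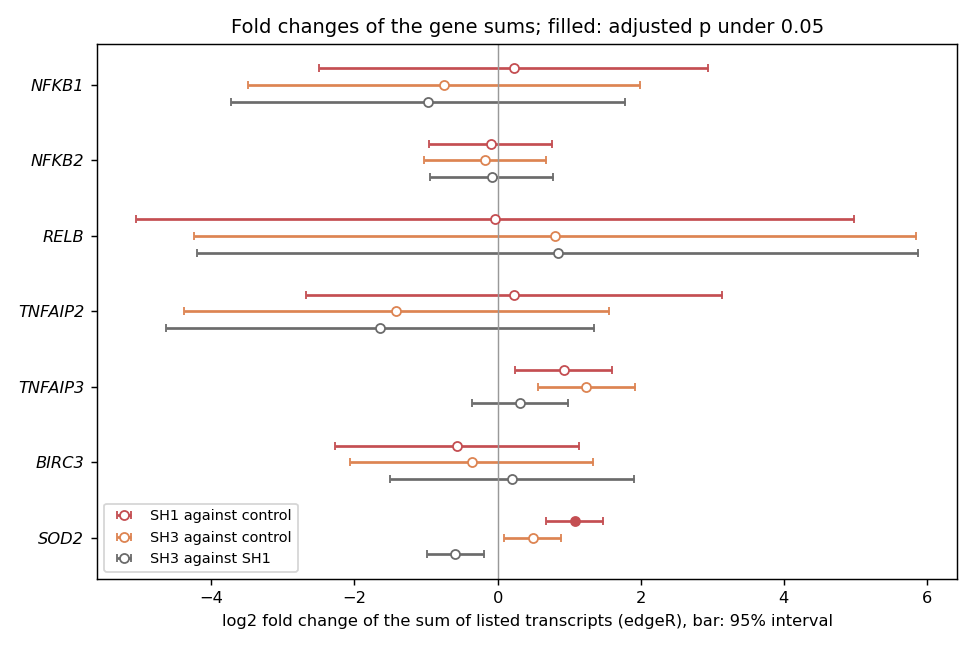
Log2 fold changes of the 7 gene sums from edgeR (x axis; bars are 95% intervals) for SH1 against control, SH3 against control and SH3 against SH1. The filled point is SOD2 in SH1 (1.08 ± 0.20 SE), and the bars of NFKB1, RELB and TNFAIP2 span more than 5 log2 units.

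In FPKM, 2 of the 7 sums did not overlap between SH1 and control, TNFAIP3 and SOD2, both higher, against 20.2% of all sums that did not overlap in either direction. For TNFAIP3 this turned on the unit: in the authors' normalized read counts its sum in SH1 1 (229) was below that in control 1 (234). In SH3 against control 1 sum of 7 did not, TNFAIP3, against 17.4%, and in SH3 against SH1 1 did not, SOD2, lower in SH3, against 22.4%. Of the 13 tested transcripts, 3 were higher and 1 lower without overlap in SH1 against control (16.1% of all transcripts), 1 higher in SH3 (12.3%), and 1 higher and 1 lower in SH3 against SH1 (14.5%). The comparisons with control share the same 3 controls. Since the listing turns on SH1 1 and control 1, directions were also read in the other 4 libraries of those groups. There 8 of 13 tested member transcripts moved as in that pair (61.5%), against 53.8% of all tested transcripts, so the members' share is near the background.

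The rest of the pathway gives the setting of these values. Of 148 further NF-kB genes, 69 are listed and 67 were tested as sums. These gene lists were chosen with earlier results of these data known. Counts and medians of the lists, here and below, are therefore descriptions and no independent test of the pathway. In SH1 against control 8 rose and 0 fell (edgeR adjusted p under 0.05), where 1.06% of all sums were called higher, with a median log2 fold change of 0.51 against -0.03 over all tested sums. DESeq2 called 16 of the 67 in SH1, 6 in SH3 and 11 in SH3 against SH1, where it called 7.46%, 4.09% and 6.85% of all sums. By edgeR, in SH3 against control 2 rose and 0 fell, where 0.297% of all sums were called higher, with a median of 0.20 against -0.03. SH3 against SH1 had 0 higher and 2 lower, where 0.578% of all sums were called lower.

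TNIP1, which binds TNFAIP3 and restrains NF-kB with it, was the 1 inhibitor of 11 tested that passed in edgeR. It did so in SH1 and in the average, where edgeR called 2.14% and 1.11% of all sums. DESeq2 called 2 of the 11 in SH1, TNIP1 and BIRC2, and 2 in the average (7.46% and 5.71% of all sums). In SH3 against SH1 it called 2 lower, TNIP1 and ITCH (6.85% of all sums). The TNIP1 sum was 63.6, 62.7 and 69.7 FPKM in SH1, 37.6, 29.6 and 34.2 FPKM in SH3, and 27.4, 14.2 and 20.9 FPKM in control. SH1 was above SH3 and SH3 above control in every library. The log2 fold change was 1.52 ± 0.22 in SH1 (edgeR adjusted p = 0.0130; 0.0593 without control 3, 0.0561 without SH1 2 and 0.0823 with only the groups compared) and 0.67 ± 0.21 in SH3 (0.415), and SH3 against SH1 was -0.85 ± 0.22 (0.151). DESeq2 gave TNIP1 an adjusted p of 0.107 in SH3 against control and 0.00985 in SH3 against SH1. BIRC2, the close relative of BIRC3, averaged 2.88 ± 0.433 FPKM in SH1, 2.09 ± 0.482 FPKM in SH3 and 1.25 ± 0.164 FPKM in control, with a log2 fold change of 1.04 ± 0.29 in SH1 (adjusted p = 0.161 in edgeR and 0.00268 in DESeq2). The inhibitors ITCH and NFKBIB did not pass against control in either tool, and the list's median in SH1 was -0.20. RELA, the main transactivating subunit and the 1 other subunit listed of 2, averaged 5.48 FPKM in SH1, 4.21 FPKM in SH3 and 3.64 FPKM in control and did not pass in either tool.

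None of the 10 kinases, 9 adaptors and ligases or 10 receptors passed in any comparison in edgeR. Under an unadjusted p of 0.05 there were 1 kinase and 2 receptors in SH1 (11.5% of all sums), 3 and 1 in SH3 (8.39%), 1 and 1 in the average (10.2%), and 1 and 3 in SH3 against SH1 (10.8%), with 0 adaptors in each. DESeq2 called 1 kinase and 2 receptors in SH1 (7.46% of all sums), 0 and 0 in SH3 (4.09%), 1 and 0 in the average (5.71%), and 1 and 3 in SH3 against SH1 (6.85%). Those in SH1 and in the average were higher. In SH3 against SH1 the kinase was lower, and of the 3 receptors 1 was higher and 2 were lower. Their best-read genes were MAP3K3, IKBKB, TAB2 and IKBKG of the kinases, MYD88, TRAF5, UBE2V1 and CUL1 of the adaptors, and IL1RAP, IL17RA, TLR6 and FAS of the receptors. Of 15 other intracellular and membrane targets, KYNU, a tryptophan-pathway enzyme, was the 1 that passed in edgeR in SH1, with 17.1, 15.6 and 15.0 FPKM in SH1, 10.1, 10.2 and 9.76 FPKM in SH3 and 6.34, 6.86 and 6.08 FPKM in control. The groups did not overlap, and the log2 fold change was 0.86 ± 0.14 in SH1 (edgeR adjusted p = 0.0215; lost without control 2, control 3, SH1 1, SH1 2 or any 1 SH3 library, at most 0.0922) and 0.42 ± 0.14 in SH3 (0.423 in edgeR and 0.00593 in DESeq2). DESeq2 called 2 of the 15 in SH1 and 2 in the average (7.46% and 5.71% of all sums). In SH3 against SH1 it called 2 of the 15 (6.85% of all sums), each lower, with KYNU among them (DESeq2 adjusted p = 0.00117). BCL2L1, ZC3H12A and CEBPD, the other best-read targets, did not pass in edgeR, and DESeq2 called ZC3H12A in the average (adjusted p = 0.0259). Of 11 secreted targets, 6 were higher in SH1 in edgeR and 9 in DESeq2. These tools called 2.14% and 7.46% of all sums in SH1, in either direction. Among the secreted targets, CXCL1 averaged 410 FPKM in SH1, 345 FPKM in SH3 and 198 FPKM in control. CXCL1 passed in both SH1 and SH3 in edgeR. CSF3 did so too. CSF2, CXCL5, CXCL6 and C3 passed in SH1, and C3 and CXCL6 fell in SH3 against SH1, by the same test. DESeq2 also called CSF2 lower in SH3 against SH1 (adjusted p = 0.00043). LIF did not pass in edgeR (adjusted p = 0.102 in SH1 and 0.157 in SH3) but did in DESeq2 (0.00227 and 0.00107).

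**Figure D4:**
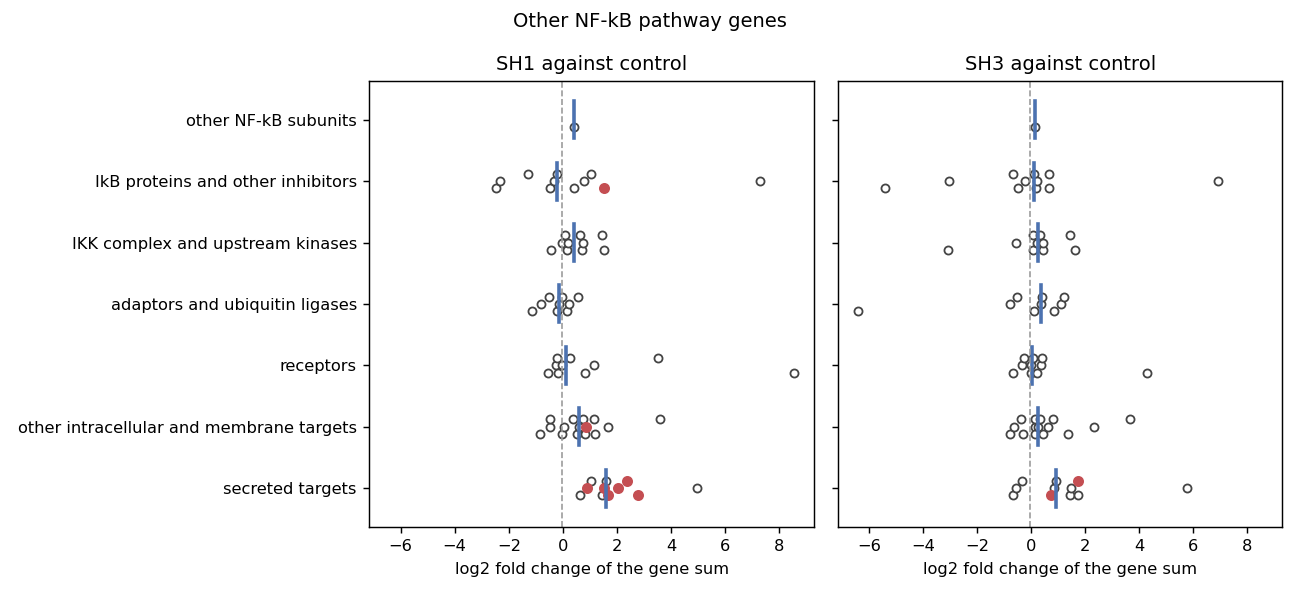
Log2 fold changes of the sums of 67 further NF-kB genes (x axis) by list (y axis), for SH1 against control on the left and SH3 against control on the right; filled points passed an adjusted p of 0.05 in edgeR, blue lines are list medians. The filled points are 8 in SH1 and 2 in SH3, all above 0, and 6 of the 8 are secreted targets.

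Across the 9 libraries, the genes whose log2 FPKM most resembled the mean of SOD2 and NFKB2, the members over 5 FPKM, were TCF19 (Pearson r = 0.84), PLCXD1 (0.83), UBE2J2 (0.82), MAP4K4 (0.82) and ASL (0.81), of 1079 genes compared. SOD2 and NFKB2 themselves correlated at 0.24. TCF19 correlated at 0.95 with SOD2 and at 0.37 with NFKB2, and ASL at 0.70 with SOD2 and at 0.58 with NFKB2. These are descriptions over 9 libraries in 3 groups, and libraries of a group are not independent of its mean.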

How the data were processed

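Each of the 9 libraries of Caki-1 RNA was assigned to its group by its label. The authors deposited one table with FPKM, TPM, estimated counts and normalized read signal for each transcript and library, with human RefSeq identifiers; the submitters' processing notes name the build mm10, and the aligner is not given in the sources used here. Of the deposited estimated counts, 65.1% are not whole. For the tests they were rounded, per transcript and summed per gene, and fitted for all 9 libraries at once with edgeR 4.0.16 quasi-likelihood in R 4.3.3, with TMM scaling, the default low-count filter (minimum 10 counts) and Benjamini-Hochberg adjustment over the whole table. DESeq2 1.42.0, limma 3.58.1 on log2(FPKM + 1), other filters and scalings, a replicate block and leave-one-out fits were alternatives. The SH1 test was tried on simulated counts. With the spread estimated from the data, it recovered 0 of 80 transcripts changed 4-fold and 0 of 80 changed 8-fold. Of the changed sums it recovered 14.3% at 4-fold and 40.9% at 8-fold. With the dispersion, a measure of spread, set to 0.02, it recovered 97.9% to 100% of changed transcripts and sums. A transcript or sum that did not pass may therefore still have changed. The replicate numbers were not used to pair libraries in the main fit. Members and gene lists were chosen with earlier results of these data known; named genes were all members, the list genes past the threshold, and up to 4 best-read genes per list. Genes of like pattern were the 5 with the highest Pearson correlation over the 9 libraries among sums of at least 5 FPKM on average. Using the library factors of the authors was an alternative chosen after seeing the data.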

Additional observations from a re-analysis of the deposited data

How the results depend on the processing

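Directions and calls were recomputed under 18 other settings. The count of member transcripts called in SH1 against control, 1, fell to 0 with limma, with the replicate block, with only the groups compared and without control 1 and SH1 1, and was 0 to 1 over single left-out libraries. Its SH3 count, 0, became 1 with DESeq2 and with the authors' library factors. For the average it was 0 with the replicate block and without control 1 and SH1 1, and 0 to 1 over single left-out libraries. The member sum count in SH1, 1, became 0 with the replicate block and without control 1 and SH1 1, and was 0 to 1 over single left-out libraries; with DESeq2 the SH3 sum count was 1 and that of the average 2. Some small fold changes changed sign. TNFAIP3 NM_001270508 in SH3 against SH1 was -0.0683 without control 1 and SH1 1, and -0.0715 to 0.513 over single left-out libraries. SOD2 NM_001024465 in SH3 against control was -0.0637 without control 1 and SH1 1, and -0.0499 to 0.541 over left-out libraries. The NFKB2 sum in SH1 was 0.0901 with limma and 0.0174 with the authors' library factors, and over left-out libraries -0.421 to 0.433 in SH1, -0.390 to 0.353 in SH3 and -0.337 to 0.279 in SH3 against SH1, where it was 0.276 without control 1 and SH1 1. The BIRC3 sum was 0.158 with the replicate block in SH3, and in SH3 against SH1 -0.280 without control 1 and SH1 1 and -0.277 to 0.734 over left-out libraries. With DESeq2 size factors the median log2 fold change of all transcripts in the average was -0.17, against -0.07 with TMM; SOD2 and TNFAIP3 sums kept their direction in SH1 and SH3 in all 19 settings. Of the members, the SOD2 sum was called in SH1 in 10 of 19 settings. NM_001270508 of TNFAIP3 was called in 9 of 19 in SH1, 2 of 19 in SH3 and 8 of 18 in the average. The TNFAIP3 sum was called in SH3 in 1 of 19. Of the other genes, the SH1 calls of CSF3, C3 and CXCL1 held in 19 of 19 settings, of CSF2 and TNIP1 in 16, of CXCL5 and CXCL6 in 11, and of KYNU in 9. The CXCL1 call in SH3 held in 10. The causes were not tested. Same-numbered pairs of libraries correlated at -0.27 to 0.03 and others at -0.10 to 0.19. The -0.27 belongs to control 1 and SH1 1, which chose the table, so these values cannot show whether the numbers pair libraries. What depth alone limits was not tested; the selection on one pair of libraries limits every comparison.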
